A study of Mus musculus with 4 samples.

Results

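The nuclear genes of the oxidative phosphorylation machinery were described in immune cells from GL261 glioma, a mouse brain tumour model. Members were all genes whose symbol starts with Ndufa, Ndufb, Ndufc, Ndufs, Ndufv, Sdha, Sdhb, Sdhc, Sdhd, Uqcr, Cox4, Cox5, Cox6, Cox7, Cox8 or Atp5, without Cox6a2 and without symbols that hold -ps, matched between libraries by Ensembl identifier. Of 30406 genes present in all 4 libraries, 97 were members. They comprised 36 subunits of complex I, 4 of complex II, 8 of complex III, 18 of complex IV, 17 of complex V, 13 assembly factors that share a prefix with the subunits, and Dmac2l, listed under an Atp5 synonym. The prefixes matched 100 identifiers in all. The 3 left out were Cox6a2, Ndufb1-ps and a second Atp5o identifier that only the untreated libraries list, with 0 counts.

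The study held 4 single-cell RNA libraries of CD45.2+ 7-AAD- live immune cells, 1 library in each group. Untreated WT mice and untreated KO mice, whose genotype is given as IFNaR-/- (no type I interferon receptor), were sampled on day 20. Anti-PD1 WT and anti-PD1 KO mice received 200 ug of an antibody against the T cell checkpoint receptor PD-1 on days 7, 11, 15 and 19 and were sampled on day 25, and their CD3+ and CD3- cells were combined in equal parts. Suspensions were pooled, and the number of mice, their strain and their age are not given in the sources used here. Treatment, day and sort therefore changed together, and no comparison of genotype or treatment had a replicate. One sentence of the protocol calls the sorted cells lung cells, while the tissue is given as brain, and microglial markers were read in every library.

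In oxidative phosphorylation, complex I (NADH dehydrogenase) and complex II (succinate dehydrogenase, also a TCA cycle enzyme) pass electrons to ubiquinone, complex III passes them to cytochrome c, and complex IV (cytochrome c oxidase) passes them to oxygen. Complexes I, III and IV pump protons, and complex V, the ATP synthase, uses the proton gradient to make ATP. Most subunits are encoded in the nucleus, and the mitochondrial genome encodes the others, so that assembly needs both genomes. Macrophages and T cells are both known to alter their use of respiration and glycolysis with activation.

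Before filtering, the libraries held 3705 to 9530 barcodes and 32410040 to 94732545 UMIs (unique molecular identifiers, 1 per captured transcript). After filtering, 4982, 2726, 8742 and 7881 cells were kept in untreated WT, untreated KO, anti-PD1 WT and anti-PD1 KO, the order used for all values in 4 libraries below. Barcodes with over 10% mitochondrial UMIs made up 21.0%, 24.2%, 0.693% and 3.30%. The anti-PD1 WT library stood apart in its T cell receptor counts. The protocol names a 5′ kit for every library, yet UMIs on T cell receptor V segments (the 5′ end of the transcript) per UMI on C segments (the 3′ end) were 0.0175, 0.0167, 2.12 and 0.0843. The anti-PD1 libraries shared 95 barcodes, 0.997% of WT and 1.08% of KO, and every other pair shared 0 to 3. Isg15, a type I interferon target, stood at 2145, 122, 1359 and 85.6 counts per 1000000 UMIs (CPM) in monocytes/macrophages, low in both KO libraries. Ifnar1 itself stood at 130, 133, 81.7 and 139 CPM in the same cells, and where its deletion lies is not given, so these reads do not check the genotype.

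Cells were assigned to a lineage by raw marker counts, called a gate here. T cells needed at least 2 UMIs of Cd3d, Cd3e and Cd3g together, microglia (the resident macrophages of the brain) at least 2 of P2ry12, Tmem119, Sall1 and Gpr34, and monocytes/macrophages at least 3 of Ccr2, Ms4a7, F13a1, Fcgr1 and Ms4a4c. Gates for NK cells, B cells, neutrophils (with Csf3r among their markers) and conventional dendritic cells were set as well. They held 170, 30, 0 and 0 NK cells, 58, 18, 3 and 2 B cells, 81, 75, 3 and 16 neutrophils and 128, 173, 31 and 50 dendritic cells, too few in some libraries for the comparisons below, which use the first 3 gates. Cells that met several of these 7 gates, 13.6% to 23.1% of kept cells, were left out, as were the 12.5% to 28.8% that met none. The monocyte/macrophage gate held 1720, 760, 4971 and 2614 cells, the T cell gate 1002, 502, 459 and 597, and the microglia gate 154, 129, 257 and 1264. The T cell gate was 20.1%, 18.4%, 5.25% and 7.58% of kept cells. These shares were low in the anti-PD1 libraries, where CD3+ and CD3- cells are described as combined in equal parts. The reason was not tested, and cells of several gates are not in these shares. Sums of the gate markers follow from the gating rule itself and are no separate check of cell identity. T cell markers summed to 2035 to 4773 CPM in the T cell gate and to at most 20.9 CPM in microglia and monocytes/macrophages. Microglial markers summed to 1360 to 2965 CPM in microglia and to at most 28.1 CPM in monocytes/macrophages and T cells. Monocyte/macrophage markers summed to 1132 to 2003 CPM in that gate and to 123 to 183 CPM in microglia. UMIs of a gate were summed within each library, and CPM is relative to all UMIs of that gate and library.

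Members took up a larger share of the transcripts of macrophages and T cells than of microglia in all 4 libraries. Their summed share of UMIs was 1.80%, 1.97%, 1.76% and 2.996% in monocytes/macrophages, 2.18%, 1.95%, 1.97% and 2.38% in T cells, and 1.16%, 1.07%, 1.33% and 1.64% in microglia. Every microglia value lay below every value of the other two gates. The monocyte/macrophage value of anti-PD1 KO was the highest of all 12. The medians over single cells gave the same picture, at 1.67%, 1.86%, 1.72% and 3.05% in monocytes/macrophages and 0.983%, 0.954%, 1.253% and 1.49% in microglia. Neutrophils of the untreated libraries were lower still, with medians of 0.846% and 0.706% over 81 and 75 cells.

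**Figure D1:**
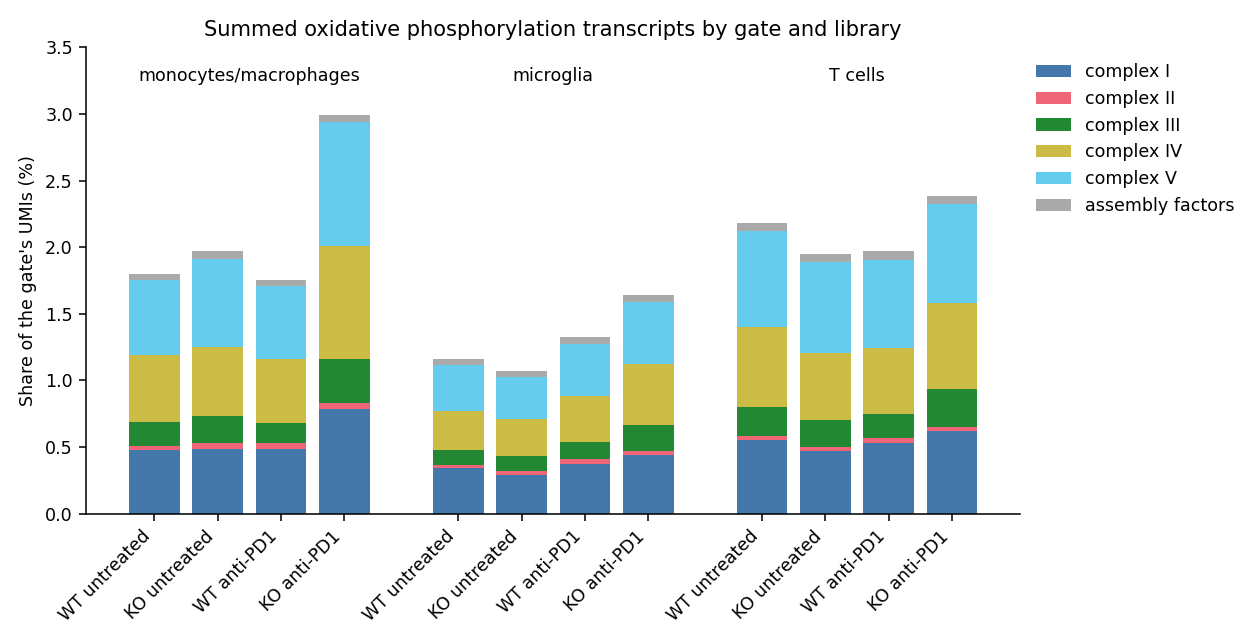
Summed share of UMIs (%) taken by members in each gate and library, stacked by complex. Microglia stand between 1.07% and 1.64%, and monocytes/macrophages of anti-PD1 KO reach 2.996%.

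The complexes contributed unequally. In untreated WT monocytes/macrophages, complex V subunits summed to 0.567% of UMIs, complex IV to 0.498%, complex I to 0.479%, complex III to 0.182% and complex II to 0.0297%. Single members ranged from 0 to 1596 CPM over the 3 gates, with 3 to 5 members at 0 in each gate and library. The counts carry no term for transcript length, so levels of different genes are not ranked here.

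Cox4i1, the widely expressed form of the complex IV subunit that takes part in its regulation by ATP, stood at 798, 989, 938 and 1596 CPM in monocytes/macrophages, 601, 647, 976 and 1122 in microglia and 872, 801, 1029 and 1105 in T cells. Uqcrh, the hinge protein of complex III that assists electron transfer to cytochrome c, stood at 524, 620, 347 and 1028, 363, 414, 454 and 884, and 922, 821, 741 and 1415 CPM in the same gates. Both were highest in anti-PD1 KO in every gate, and Uqcrh was higher in T cells than in either myeloid gate of each library. Sdha, the catalytic flavoprotein subunit of complex II, stood at 55.9, 118, 64.0 and 105 CPM in monocytes/macrophages, 77.8, 104, 89.3 and 96.3 in microglia and 83.5, 93.4, 84.9 and 119 in T cells. Its monocyte/macrophage values split by genotype, with both KO libraries above both WT libraries.

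The lineage contrasts asked which members differ between cell types. They were the only comparisons with replicates, since each of the 4 libraries gives 1 profile per gate. These were tested with edgeR's quasi-likelihood test with the library as a block (12 profiles, 6 residual degrees of freedom), adjusted by Benjamini-Hochberg over the 11997 genes tested. The libraries differ in genotype and treatment, so the test asks whether a lineage difference is larger than its spread over these conditions. SE is the absolute log2 fold change divided by the square root of the test's F value, and edgeR does not report it itself. Of the 97 members, 93 passed the filter on low counts.

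Microglia stood below monocytes/macrophages across all 5 complexes. Of the 93 members tested, 74 were lower and 2 higher, where 21.6% and 20.1% of all genes were lower and higher. The median log2 fold change was -0.90 for members and -0.01 for all genes. In all 4 libraries 79 members were lower, where 3511 of the 11997 genes tested were. The lower members were 32 of 36 complex I subunits, 3 of 4 of complex II, 6 of 8 of complex III, 12 of 14 of complex IV, 16 of 17 of complex V and 5 of 13 assembly factors.

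Cox5a, a complex IV subunit that binds a thyroid hormone metabolite, stood at 338, 458, 532 and 702 CPM in monocytes/macrophages and at 158, 138, 223 and 194 in microglia. The ranges did not overlap, and the log2 fold change was -1.75 (SE 0.24, edgeR adjusted p = 0.00017). Cox7b, a small complex IV subunit, stood at 302, 298, 227 and 517 against 128, 78.0, 127 and 170 CPM, again with no overlap (log2 fold change -1.64, SE 0.24, edgeR adjusted p = 0.00026). In complex V, Atp5md and Atp5k, small subunits that help the ATP synthase form dimers, were lower by log2 fold changes of -1.55 (SE 0.20) and -1.53 (SE 0.21), with edgeR adjusted p of 0.00010 and 0.00017. Atp5h, a stalk subunit, stood at 507, 502, 471 and 812 CPM in monocytes/macrophages and 251, 168, 323 and 374 in microglia (log2 fold change -1.31, SE 0.22). Within complex III, Uqcrq had a log2 fold change of -1.32 (SE 0.21, edgeR adjusted p = 0.00046).

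The 17 members that did not pass included the catalytic subunit of complex II. Sdha had a log2 fold change of -0.10 (SE 0.17, edgeR adjusted p = 0.67), while its partners Sdhb (the iron-sulphur subunit), Sdhc and Sdhd (the membrane anchors) had values of -0.91, -0.67 and -0.86 and passed the test. Ndufs1, the largest iron-sulphur subunit of complex I, gave -0.22 (SE 0.15) and Ndufa4, a complex IV subunit, 0.31 (SE 0.25), and neither passed. The 2 members higher in microglia were Ndufaf7, a methyltransferase that acts in complex I assembly, at 21.9 against 7.84 CPM on average (log2 fold change 1.32, SE 0.27, edgeR adjusted p = 0.0025), and Dmac2l at 14.3 against 5.32 CPM (1.204, SE 0.24, edgeR adjusted p = 0.0019).

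**Figure D2:**
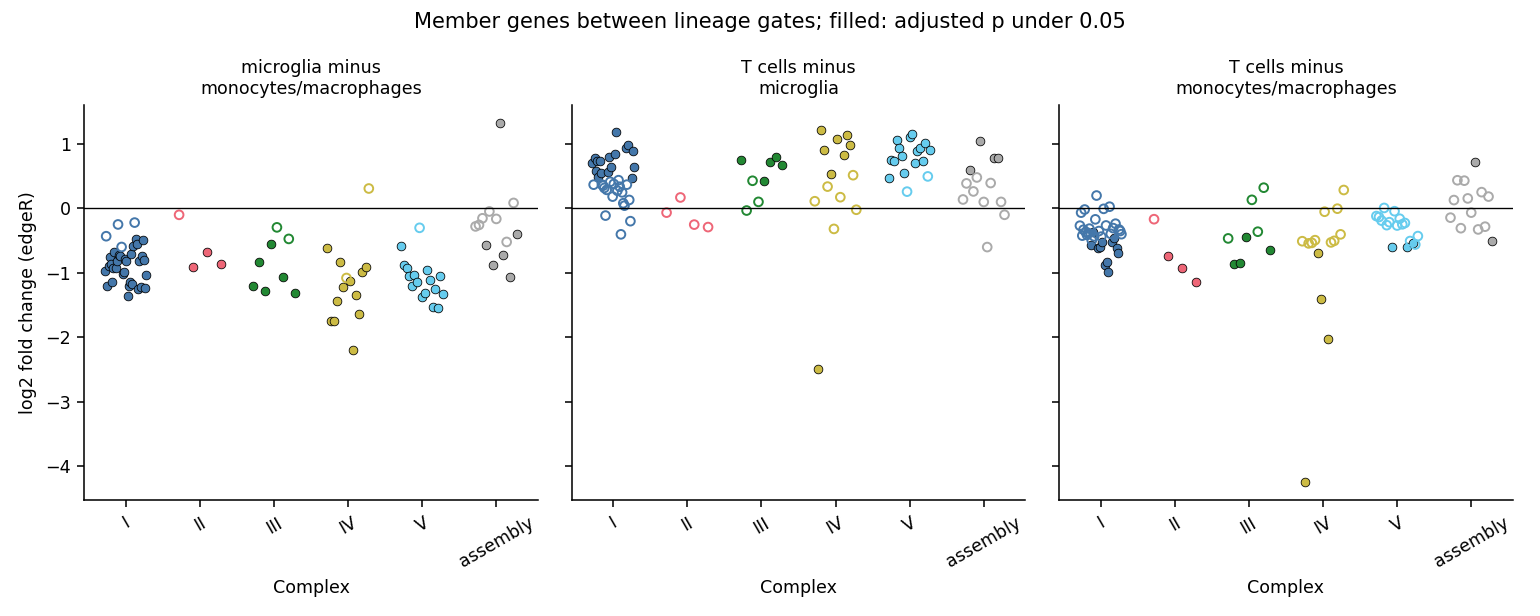
log2 fold change of each member between gates (edgeR), by complex; filled points have an adjusted p under 0.05 and open points do not. In the left panel 74 of 93 members are lower in microglia, in the middle panel 48 are higher in T cells than in microglia, and in the right panel 27 are lower in T cells than in monocytes/macrophages.

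Related gene groups did not all go the same way in microglia. Glycolytic genes were lower for 16 of 19 tested and higher for 1 (median log2 fold change -1.53), with Pfkp, a phosphofructokinase, at -3.62 (SE 0.22). Constitutive proteasome subunits were lower for 24 of 31 (median -0.88), and mitochondrial ribosomal proteins for 48 of 78 (median -0.65). TCA cycle genes were lower for 7 of 17 and higher for 1, Suclg2, a subunit of succinyl-CoA synthetase, at 1.59 (SE 0.19). Of the 13 subunits encoded by the mitochondrial genome, 3 were higher in microglia and 0 lower, where 20.1% and 21.6% of all genes were. The share of higher ones was thus near the background, and 10 did not pass. The 3 were mt-Nd2, mt-Nd4l and mt-Cytb (log2 fold change of mt-Cytb 0.63, SE 0.21, edgeR adjusted p = 0.033). mt-Nd1, mt-Co1 and mt-Atp6 gave 0.35, -0.31 and 0.02 and did not pass. The median log2 fold change in this contrast was 0.21 for the mitochondrially encoded subunits and -0.90 for the nuclear members.

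T cells stood above microglia in the same machinery. Of 93 members, 48 were higher and 2 lower, where 27.3% and 30.6% of all genes were higher and lower, and the median log2 fold change was 0.49. The higher members were 17 of 36 in complex I, 5 of 8 in complex III, 7 of 14 in complex IV, 15 of 17 in complex V and 4 of 13 assembly factors. The 4 complex II genes did not pass, with log2 fold changes of -0.29 to 0.17 and edgeR adjusted p of 0.22 to 0.77. Cox5a (log2 fold change 1.21, SE 0.24), Ndufb7 (1.19, SE 0.18), an accessory subunit of complex I, and Atp5h (1.14, SE 0.22) led, with edgeR adjusted p of 0.0012, 0.00017 and 0.00083. Cox7b, Atp5g3 (a c-ring subunit of the ATP synthase) and Cox6c followed at 1.13, 1.10 and 1.07. This contrast uses the same microglia profiles as the one above. The count of 48 was 25 without the untreated WT library and 27 without untreated KO. Mitochondrial ribosomal proteins were higher in T cells for 35 of 78, and mitochondrially encoded subunits lower for 5 of 13.

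Between T cells and monocytes/macrophages members stood somewhat below all genes, and how many were called lower depended on the scaling. With TMM scaling 27 of 93 members were lower in T cells and 1 higher, where 31.5% and 25.1% of all genes were. The median log2 fold change was -0.36 for members and -0.06 for all genes. Scaled to library totals 10 members were lower and 8 higher, where 2679 and 4614 of the 11997 genes were, and the medians moved together, to -0.0011 for members and 0.31 for all genes. Without the library block 7 were lower, without the anti-PD1 WT library 13 and without anti-PD1 KO 12. Complex II genes were among the lower ones under TMM. Sdhd stood at 70.7, 112, 118 and 121 CPM in monocytes/macrophages and 61.0, 61.7, 64.3 and 52.8 in T cells, with no overlap (log2 fold change -1.15, SE 0.19, edgeR adjusted p = 0.00035). Sdhc gave -0.93 (SE 0.16) and Ndufc2, a membrane subunit of complex I, -0.995 (SE 0.19). Ndufaf7 was the 1 higher member (0.71, SE 0.26, edgeR adjusted p = 0.033).

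Within the T cell gate, CD4 T cells (Cd4 UMIs and no Cd8a or Cd8b1) differed from CD8 T cells (the reverse) in few members (8 profiles, 3 residual degrees of freedom). Of 90 members tested, 10 were lower in CD4 T cells and 1 higher, where 8.61% and 9.21% of all genes were lower and higher. The higher one was Sdhaf1, a complex II assembly factor, at 50.5 against 22.8 CPM on average (log2 fold change 0.99, SE 0.18, edgeR adjusted p = 0.0023, higher in 4 of 4 libraries). Among the lower ones, Atp5mpl gave -0.51 (SE 0.094), Cox5a -0.45 (SE 0.085) and Ndufs7, which carries the last iron-sulphur cluster before ubiquinone, -0.42 (SE 0.10). Glycolytic genes were higher in CD4 T cells for 9 of 17 and lower for 2, among them Hk2, a hexokinase, at 1.21 (SE 0.17). The count of lower members was 3 by DESeq2, 2 to 4 with any 1 library left out, and with edgeR without the library block it was 0, with 1 member at an unadjusted p under 0.05.

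Sequences upstream of transcription starts were read for members whose lineage levels are given above. RefSeq promoters (GRCm38.p6) were matched for 81 of 97 members, as windows of 300 bases, 250 before and 50 after the start. They were searched on both strands for the core of the site of nuclear respiratory factor 1 (NRF1), GCGCA and GCGC with any 1 base between them, CCGGAAG, a core that ETS factors such as GABPA bind, and AAGATGGC, part of the YY1 site. The NRF1 letters were in 25.9% of member promoters (21 of 81), against 5.19% of 27025 genes with a promoter and 11.9% of the 9435 of these tested between lineages. The ETS letters were in 27.2% (22 of 81), against 9.93% and 21.1%. The YY1 letters were in 13.6% (11 of 81), against 3.19% and 5.59%. At least 1 of the 3 was in 46 of 81 member promoters (56.8%, against 16.4% and 33.8%), in 12 of 15 of complex V, 17 of 32 of complex I and 3 of 13 of complex IV. A match is a description of letters and not a measured binding site.

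The 250 bases upstream of 4 members are given here with these matches in capitals, because the first did not pass in microglia against monocytes/macrophages and the others fell. Sdha lies on chr13:74350241-74350490 (minus strand), Atp5h on chr11:115419920-115420169 (minus strand), Atp5k on chr5:108434400-108434649 (minus strand) and Cox5a on chr9:57520982-57521231 (plus strand). Sdha holds 3 NRF1 matches, which start 98, 55 and 10 bases before the transcription start. Atp5h holds 1 NRF1 match 141 bases before and 1 ETS match, on the other strand, 38 bases before. Atp5k holds 1 NRF1 match 50 bases before, and Cox5a holds none of the letters searched in this window.
Sdha: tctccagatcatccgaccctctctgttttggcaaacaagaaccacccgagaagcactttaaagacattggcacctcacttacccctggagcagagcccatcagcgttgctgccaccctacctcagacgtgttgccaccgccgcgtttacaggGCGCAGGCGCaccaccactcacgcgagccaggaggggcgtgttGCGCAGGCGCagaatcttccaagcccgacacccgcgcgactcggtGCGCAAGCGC
Atp5h: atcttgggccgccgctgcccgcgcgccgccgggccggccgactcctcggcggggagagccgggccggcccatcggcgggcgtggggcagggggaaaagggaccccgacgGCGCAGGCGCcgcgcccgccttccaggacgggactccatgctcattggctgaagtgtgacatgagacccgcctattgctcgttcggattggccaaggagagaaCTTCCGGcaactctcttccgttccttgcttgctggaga
Atp5k: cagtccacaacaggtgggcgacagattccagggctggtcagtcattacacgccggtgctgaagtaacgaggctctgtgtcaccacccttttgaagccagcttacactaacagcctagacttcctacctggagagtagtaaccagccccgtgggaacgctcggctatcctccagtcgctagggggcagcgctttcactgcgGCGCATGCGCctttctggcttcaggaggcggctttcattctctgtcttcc
Cox5a: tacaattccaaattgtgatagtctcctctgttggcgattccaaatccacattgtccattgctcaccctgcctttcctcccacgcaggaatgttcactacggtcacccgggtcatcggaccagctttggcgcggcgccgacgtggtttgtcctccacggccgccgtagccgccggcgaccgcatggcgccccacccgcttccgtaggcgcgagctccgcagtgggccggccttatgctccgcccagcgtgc

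Genes of tissue-restricted isoforms were near the detection limit, and the widely expressed forms carried the counts. Cox7b2, Cox8b and Cox8c had 0 counts in all 3 gates of every library. Of the 3 gates, Ndufa4l2 was read in monocytes/macrophages alone, at 0.223, 0.703, 0.290 and 0.948 CPM. Cox4i2, the isoform known from lung and from oxygen sensing, stood at 3.43, 5.85, 5.12 and 3.32 CPM in monocytes/macrophages and at 0.107, 0, 1.62 and 0 in T cells. The ranges did not overlap, and it was lower in T cells (log2 fold change -4.25, SE 0.63, edgeR adjusted p = 0.00013). Cox7a1, the heart and muscle form of the subunit whose common form is Cox7a2, stood at 4.62, 7.14, 2.99 and 11.0 CPM in monocytes/macrophages, against 385, 343, 292 and 546 CPM for Cox7a2. Cox7a1 was lower in microglia (log2 fold change -2.20, SE 0.52) and in T cells (-2.03, SE 0.43) than in monocytes/macrophages, with edgeR adjusted p of 0.0058 and 0.0018. Cox6b2, known from testis, was lower in T cells (-1.40, SE 0.40, edgeR adjusted p = 0.010).

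Ndufa4 took a pattern of its own among complex IV genes, described after its values were seen. It stood at 137, 172, 56.4 and 176 CPM in monocytes/macrophages, 178, 175, 169 and 238 in microglia and 190, 169, 215 and 239 in T cells. The anti-PD1 WT monocytes/macrophages were the lowest of the 12 values. AA467197, the mouse homolog of human C15orf48, encodes a small protein that can take the place of NDUFA4 in complex IV. It stood at 569, 584, 935 and 401 CPM in monocytes/macrophages and was highest where Ndufa4 was lowest. In microglia AA467197 stood at 11.6, 21.4, 31.4 and 10.1 CPM, below every value of monocytes/macrophages and T cells, while B cells of untreated WT, with 4 UMIs, stood at 10.5 CPM. In T cells it stood at 303, 364, 172 and 193 CPM, and CD8 T cells (424, 450, 222 and 198) were above CD4 T cells (138, 176, 138 and 165) in each library.

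**Figure D3:**
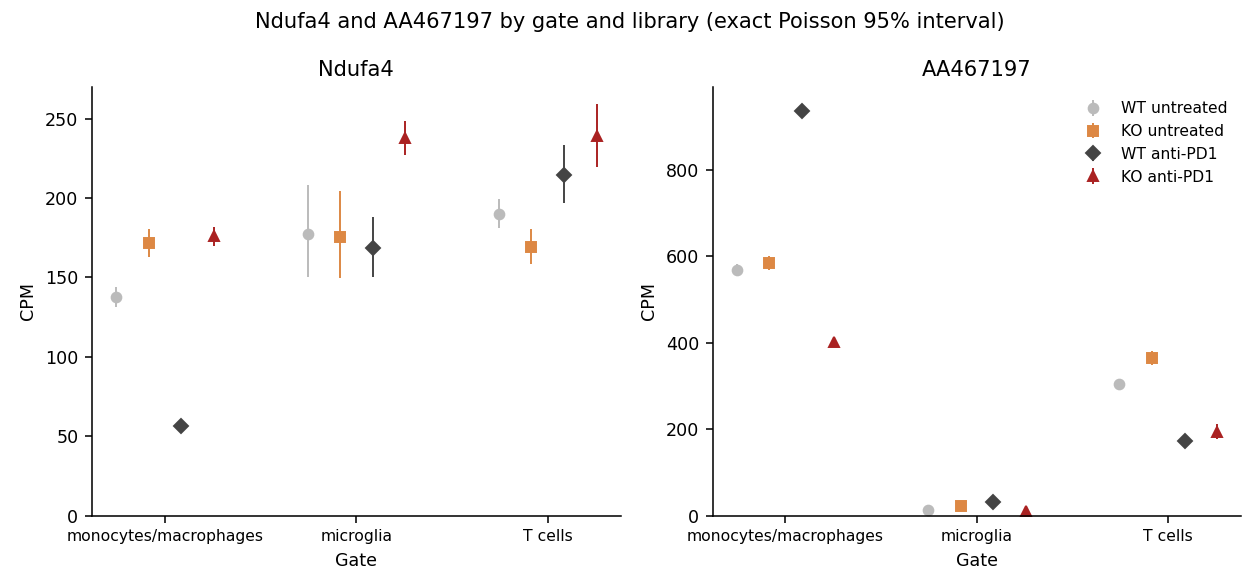
CPM of Ndufa4 and AA467197 by gate; each point is 1 library and its bar the exact Poisson 95% interval, which covers counting error only. In monocytes/macrophages of anti-PD1 WT, Ndufa4 is at 56.4 and AA467197 at 935 CPM.

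The genotype comparison asked how members differ without the type I interferon receptor. With 1 library per group no test was made. A member was counted as higher or lower when KO and WT differed by at least 0.32 on the log2(CPM + 0.5) scale (the threshold behind all such counts), and only members with at least 50 UMIs in the pair were counted. Intervals are exact 95% Poisson intervals of counting error.

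In the untreated pair, members were close to all genes in monocytes/macrophages and more often lower in KO than all genes in T cells. In monocytes/macrophages 26 of 93 were higher in KO and 8 lower, where 30.2% and 20.4% of all genes were, with medians of 0.10 for members and 0.08 for all genes. Complex II stood out in size, with 3 of 4 genes higher (median 0.67), and complex V had 7 of 17 higher and none lower (median 0.24). TCA cycle genes went the same way, with 14 of 17 higher in KO and none lower (median 0.61). In microglia 6 of 77 were higher and 20 lower (background 23.5% and 22.7%), so the share of lower members was near that of all genes, with a median of -0.15 against 0.00096 for all genes. Both microglia libraries hold under 200 cells, and after thinning each cell to 1000 UMIs only 15 members kept enough UMIs, 3 of them lower and 5 higher. In T cells 3 of 90 were higher and 20 lower (background 17.5% and 10.9%), with a median of -0.18 against 0.06 for all genes.

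In the anti-PD1 pair, monocytes/macrophages showed the largest difference of the 3 gates. There 60 of 93 members were higher in KO and 13 lower (background 34.9% and 25.4%), with a median of 0.57 against 0.10 for all genes. The higher ones were 24 of 36 in complex I (median 0.61), 5 of 8 in complex III (1.03), 13 of 14 in complex IV (0.86) and 12 of 17 in complex V (0.59), but 3 of 13 assembly factors (-0.13). Complex II was split here, with Sdha higher (0.71) and Sdhb lower. Glycolytic genes were lower in KO for 11 of 19 and higher for 2 (median -0.46). In microglia 31 of 89 members were higher and 21 lower (background 41.5% and 20.5%, median 0.17), and in T cells 29 of 86 were higher and 24 lower (background 38.7% and 26.2%, median 0.10). With TMM factors these splits turned to 22 and 27 in microglia and 24 and 31 in T cells. TMM also moved the median of all genes from 0.10 to -0.06 in monocytes/macrophages and from 0.14 to -0.01 in T cells.

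**Figure D4:**
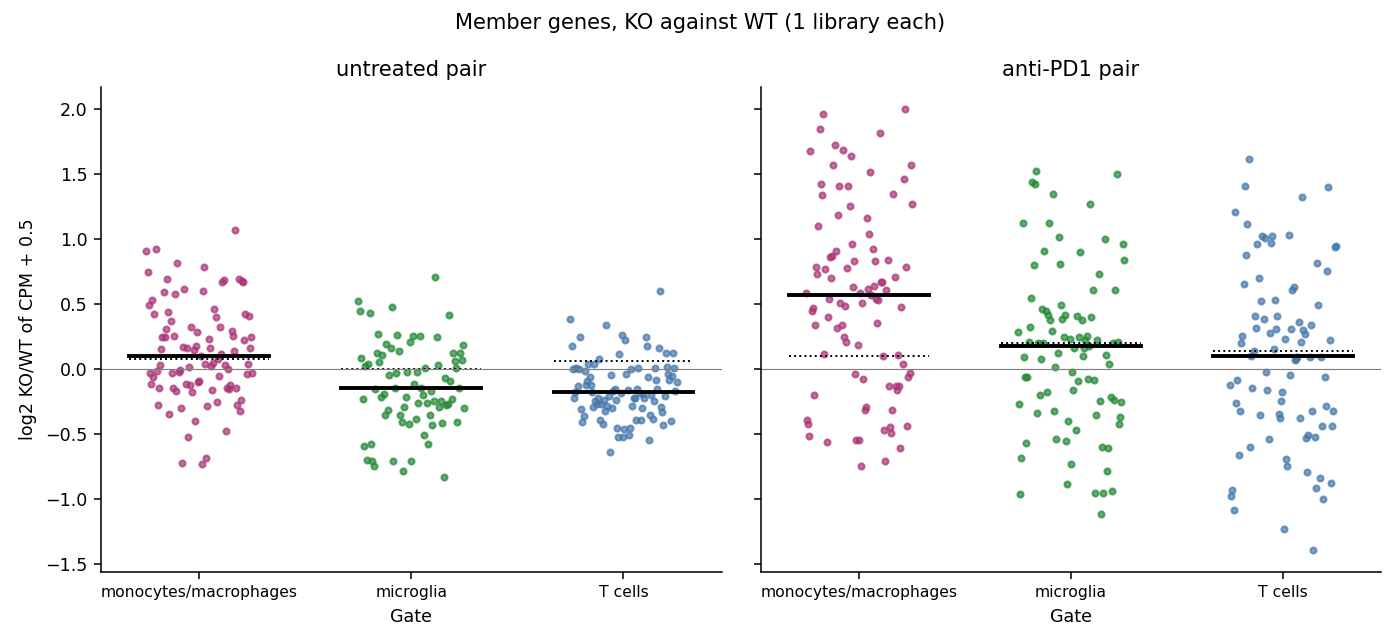
log2 KO/WT ratio of CPM + 0.5 for each member with at least 50 UMIs, by gate and pair; the solid bar is the members' median and the dotted bar the median of all genes. Monocytes/macrophages of the anti-PD1 pair have a member median of 0.57 against 0.10 for all genes.

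Part of the anti-PD1 difference was shared by all gates of these libraries. Uqcr11, a small subunit of complex III, had log2 ratios of 1.99, 1.499 and 1.40 in monocytes/macrophages, microglia and T cells. Atp5e, the epsilon subunit of the ATP synthase, had 1.68, 1.12 and 1.203, and Sdhb -0.61, -0.94 and -1.001. These offsets went with transcript length in a split made after the values were seen. Members of up to 704 nt (the members' median in GENCODE M21) had median ratios of 0.85, 0.41 and 0.37 in the 3 gates, and longer members 0.10, -0.24 and -0.32. In the untreated pair the medians of short and long members were 0.03 and 0.17 in monocytes/macrophages and -0.19 and -0.13 in T cells. Within a single gate, genotype cannot be told apart from any other difference between the anti-PD1 WT and KO libraries.

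Some members differed the same way in both pairs. In monocytes/macrophages 15 members were past this threshold with higher values in KO in both pairs and 2 lower, where 15.3% and 9.99% of all genes were. The share of higher members was thus near the background and that of lower members below it. Sdha was 2.10-fold (1.91 to 2.32) higher in the untreated pair and 1.63-fold (1.55 to 1.73) in the anti-PD1 pair. Atp5a1, the alpha subunit of the ATP synthase, stood at 239 and 449 CPM in untreated WT and KO and at 218 and 328 after anti-PD1, that is, 1.87-fold (1.79 to 1.97) and 1.501-fold (1.46 to 1.55) higher. Ndufs1 was 1.58-fold higher in each pair (1.36 to 1.87 and 1.44 to 1.78). Atp5mpl, a small ATP synthase subunit, was 1.51-fold (1.45 to 1.58) and 3.88-fold (3.78 to 4.00) higher, and Cox7a1 1.49-fold (1.07 to 2.24) and 3.30-fold (2.97 to 4.59). The 2 lower members were Ndufs4, a late-joining subunit of complex I, at 97.0 and 69.6 CPM untreated and 135 and 82.8 after anti-PD1, and Ndufaf3, a complex I assembly factor, with log2 ratios of -0.73 and -0.75.

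In T cells, of 86 members counted, no member was higher in KO in both pairs and 6 were lower, where 6.9% and 4.85% of all genes were. The share of lower members was thus near the background. Ndufs4 stood at 90.0 and 61.5 CPM in untreated WT and KO T cells and at 154 and 109 after anti-PD1, with log2 ratios of -0.54 and -0.51. Ndufaf3 gave -0.46 and -1.23, Ndufaf7 -0.51 and -0.74, Sdhaf4, a complex II assembly factor, -0.43 and -0.44, and Ndufb8 -0.39 and -0.38. Ndufs4 and Ndufaf3 were thus lower in KO in both pairs of both monocytes/macrophages and T cells. In microglia Ndufs1 was higher (log2 ratios 0.70 and 0.61), and Ndufa12 (-0.41 and -0.54) and Ndufab1, the mitochondrial acyl carrier protein (-0.38 and -0.40), were lower, where 11.6% and 5.51% of all genes were.

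Setting one gate against another of the same libraries removes an offset that all gates share. Of 86 members, the KO/WT log2 ratio of monocytes/macrophages minus that of T cells was higher past the threshold in both pairs for 33. It was lower past it in both for 0 members, where 11.3% and 11.2% of all genes were higher and lower. The difference was above 0 in both pairs for 75 members, and no share of all genes was counted for this. In the untreated pair 39 of 90 members were higher and 3 lower (median 0.28, background 24.9% and 22.0%). In the anti-PD1 pair 65 of 86 were higher and 0 lower (median 0.48, background 25.8% and 27.8%). The untreated and the anti-PD1 pair are separate libraries.

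Every complex took part. In the untreated and the anti-PD1 pair, higher members were 14 and 26 of 36 in complex I, 3 and 2 of 4 in complex II, 3 and 6 of 8 in complex III, 6 and 9 of 11 in complex IV and 8 and 16 of 17 in complex V, with none lower in these complexes. Assembly factors were higher for 5 of 13 and 6 of 10, and lower for 2 and 0. Atp5g3 stood at 174, 330, 536 and 677 CPM in monocytes/macrophages and at 275, 325, 623 and 499 in T cells, so that its relative ratio was 0.68 untreated and 0.66 after anti-PD1 (log2). Cox7a2l, which joins complexes III and IV into supercomplexes, stood at 211, 372, 222 and 277 CPM in monocytes/macrophages and 305, 321, 342 and 268 in T cells, with relative ratios of 0.74 and 0.67. Ndufaf2 and Ndufaf5, complex I assembly factors, gave 0.62 and 0.76, and 0.82 and 0.61, and Ndufb5 gave 0.61 and 0.56.

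Against microglia the picture was alike, and the comparison uses the same macrophage profiles. In the untreated pair 36 of 77 members were higher and 1 lower (median 0.31, background 30.0% and 21.7%), and in the anti-PD1 pair 62 of 89 were higher and 2 lower (median 0.43, background 22.1% and 27.2%). In both pairs 29 of 77 were higher and 0 lower, where 9.53% and 9.75% of all genes were. Cox7b gave relative ratios of 0.69 and 0.77, Ndufb6 0.66 and 0.61, Sdha 0.65 and 0.60, Cox5a 0.63 and 0.60 and Ndufa12 0.57 and 0.74. The untreated count of 36 was 20 with TMM factors and 16 with DESeq2 size factors, which move all genes of a library alike. The distance of the members' median from that of all genes was 0.02 in monocytes/macrophages and -0.15 in microglia, with or without TMM factors. A factor that moves all genes alike can hardly change this distance, so it is no check on the counts. After thinning, 5 of the 15 members with enough UMIs were higher and 1 lower. Microglia against T cells differed little, with 11 higher and 6 lower of 77 untreated and 13 and 4 of 86 after anti-PD1 (medians 0.02 and 0.04, background 20.4% and 24.6%, and 24.4% and 17.9%). In both pairs 2 of 77 were higher, Ndufs1 and Ndufa1, and 0 lower, where 5.38% and 4.8% of all genes were.

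**Figure D5:**
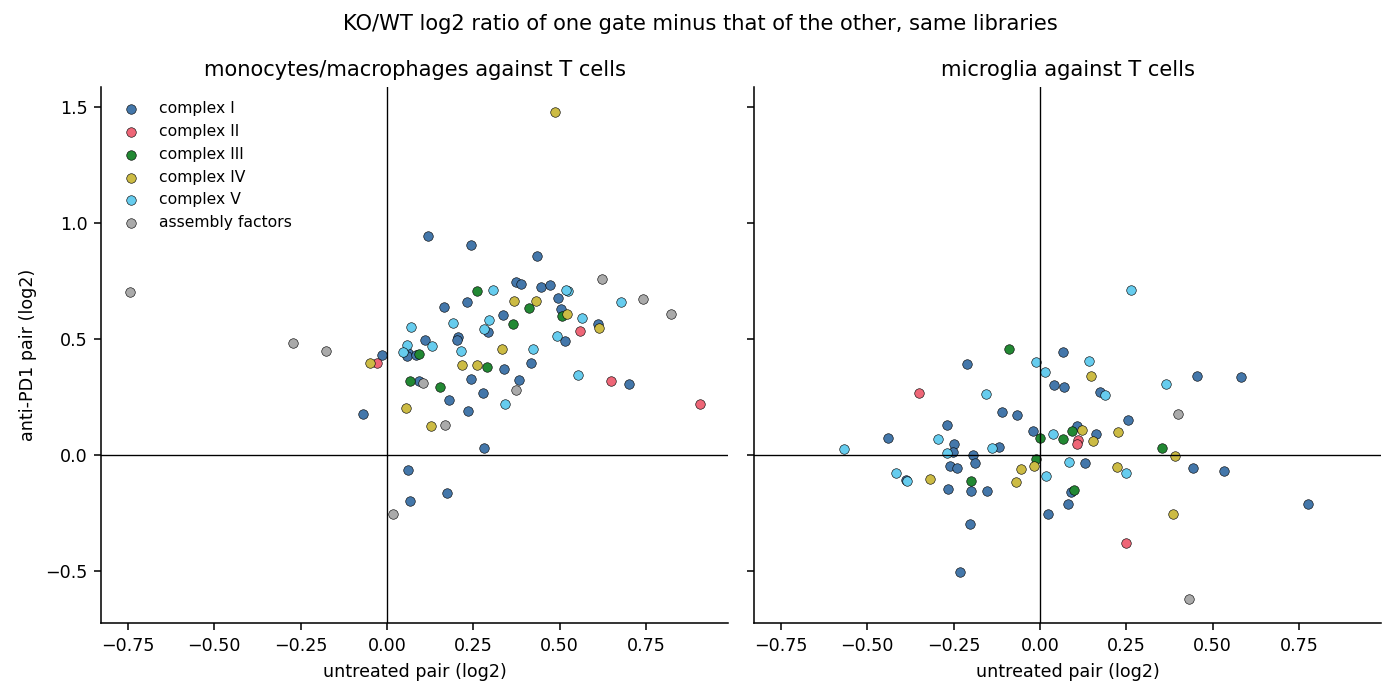
KO/WT log2 ratio of one gate minus that of another gate of the same libraries, untreated pair (horizontal) against anti-PD1 pair (vertical), 1 point per member, coloured by complex. On the left, monocytes/macrophages against T cells, 75 of 86 members lie above 0 in both pairs. No share of all genes was counted for this. Past the threshold in both pairs, 33 of 86 were higher and 0 lower, where 11.3% and 11.2% of all genes were. On the right, microglia against T cells, members lie around 0.

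Other gene groups in the same comparison went in both directions. For monocytes/macrophages against T cells, glycolytic genes were lower for 7 of 18 and higher for 1 in the untreated pair, and lower for 7 of 16 and higher for 1 in the anti-PD1 pair (medians -0.21 and -0.23). TCA cycle genes were higher for 13 of 17 and 10 of 17 (medians 0.44 and 0.36). Cytosolic ribosomal proteins were higher for 24 of 86 and 68 of 85 (medians 0.20 and 0.45), and mitochondrial ribosomal proteins for 24 of 77 and 31 of 75. Mitochondrially encoded subunits were higher for 6 of 13 and 10 of 13 (medians 0.27 and 0.51). Of all genes, 24.9% and 25.8% were higher and 22.0% and 27.8% lower in the untreated and the anti-PD1 pair. In the untreated pair both lists of ribosomal proteins were near that share of higher genes. TCA cycle genes were above it in both pairs, so the higher values were not particular to the oxidative phosphorylation genes in these counts.

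Detection of Arg1 in the macrophage gate also differed between the libraries. Cells with a UMI of Arg1, an arginase of alternatively activated and tumour macrophages, made up 24.7%, 60.5%, 69.2% and 86.6% of the gate, 1.30%, 2.59%, 8.06% and 21.8% of T cells, and 0%, 6.20%, 8.56% and 23.2% of microglia. The median depth was 7331.5, 10451, 8811 and 6228.5 UMIs per cell in macrophages and 8028, 8806, 4683 and 3326 in T cells. Whether UMIs from free RNA give such shares in T cells and microglia was not tested. A single Arg1 UMI divides cells by detection, and how this relates to cell state was not tested. In anti-PD1 KO, macrophages with an Arg1 UMI had a member share of 3.07% of UMIs and those without 2.48%, while the other libraries had 1.86% and 1.78%, 2.01% and 1.90%, and 1.76% and 1.74%. Without the cells that have an Arg1 UMI, 33 in place of 65 members were higher against T cells in the anti-PD1 pair (of 86, 2 lower, median 0.27) and 27 in place of 62 against microglia (of 89, 3 lower, median 0.19). This kept 350 of 2614 KO and 1530 of 4971 WT macrophages of that pair. No share of all genes was counted for this setting, so the drop cannot be set against that of all genes. Whether cell state, depth or free RNA sets this drop was not tested. Cells with a UMI of the cycling genes Mki67 or Top2a made up 45.7%, 52.6%, 22.0% and 18.9% of T cells. Their member share was 2.30%, 1.98%, 2.06% and 2.49%, against 2.03%, 1.89%, 1.93% and 2.34% in the other T cells, higher in each library. In monocytes/macrophages such cells were higher in the untreated libraries (1.88% against 1.78%, and 2.01% against 1.96%) and lower in the anti-PD1 ones (1.72% against 1.77%, and 2.97% against 3.0007%). In microglia, where they numbered 10 to 84, they were lower in untreated KO (1.02% against 1.08%) and higher in the other libraries.

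Anti-PD1 and untreated libraries differed in treatment, day, sort and software together, and anti-PD1 WT also stood apart in its receptor segment counts (above). These cannot be told apart, and they are the same libraries as in the genotype comparison. In KO monocytes/macrophages 58 of 93 members were higher after anti-PD1 and 14 lower (background 24.2% and 45.4%, median 0.55). In KO microglia 61 of 88 were higher and 10 lower (background 26.1% and 43.1%, median 0.58), and in KO T cells 39 of 89 were higher and 11 lower (background 34.6% and 31.8%, median 0.28). In WT monocytes/macrophages 32 of 93 were higher and 29 lower (background 26.5% and 41.4%, median 0.08). In WT microglia 29 of 84 were higher and 12 lower (background 24.4% and 47.7%, median 0.14), and in WT T cells 24 of 90 were higher and 26 lower (background 33.9% and 29.4%, median 0.05). TMM factors turned KO T cells to 18 higher and 26 lower and WT T cells to 16 and 32, and moved WT monocytes/macrophages to 51 and 12 and WT microglia to 66 and 2. They moved the median of all genes from 0.02 to -0.22, 0.04 to -0.12, -0.16 to 0.13 and -0.28 to 0.25 in the same order. Relative to all genes, the members' median was 0.79, 0.78 and 0.27 higher in KO monocytes/macrophages, microglia and T cells. In WT it was 0.24, 0.42 and 0.01 higher. With TMM factors the values were 0.80, 0.79, 0.27, 0.25, 0.42 and 0.0096 in the same order. A factor moves members and all genes of a library alike, so this closeness was fixed in advance. Transcript length went with these ratios too, in opposite ways by genotype. Members of up to 704 nt and longer ones had medians of -0.27 and 0.29 in WT monocytes/macrophages, 0.03 and 0.24 in WT microglia and -0.31 and 0.24 in WT T cells, against 0.70 and 0.19, 0.66 and 0.37, and 0.32 and 0.07 in KO. Over both genotypes and 3 gates, 21 of 84 members were higher in all 6 ratios and 2 lower, where 13.1% and 22.0% of all genes were. Atp5g3 had log2 ratios of 1.62, 1.40 and 1.18 in WT monocytes/macrophages, microglia and T cells and 1.03, 0.91 and 0.62 in KO. Ndufs7 had 0.80, 0.50 and 0.62, and 0.83, 1.08 and 0.68, and Sdhaf4 0.61, 0.59 and 0.86, and 0.80, 1.04 and 0.85. Atp5k, with a median transcript length of 321.5 nt, had -2.57, -2.28 and -2.74 in WT and -0.75, -0.69 and -1.32 in KO, and Ndufs1 was the other lower member, at -0.09 to -0.73.

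The subunits encoded by the mitochondrial genome took larger differences than their nuclear partners. Their summed level was 28350, 42970, 6398 and 18786 CPM in monocytes/macrophages, 31991, 45515, 8362 and 18073 in T cells and 36418, 55387, 8322 and 21372 in microglia. The KO library was above the WT library in each pair and gate, and both untreated libraries were above both anti-PD1 libraries. Median KO/WT log2 ratios of the 13 genes were 0.58 and 1.51 in monocytes/macrophages, 0.58 and 1.26 in microglia and 0.47 and 1.04 in T cells, for the untreated and the anti-PD1 pair. The share of barcodes with over 10% mitochondrial UMIs, given above, differed between the libraries as well, and its part in these values was not tested. mt-Co1, a core subunit of complex IV, stood at 8725, 10877, 1752 and 5251 CPM in monocytes/macrophages, where nuclear complex IV subunits summed to 4984, 5196, 4813 and 8493 CPM.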

How the data were processed

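Raw UMI counts per gene and cell barcode were deposited, made by the authors with Cell Ranger 3.1.0 (untreated) and 7.2.0 (anti-PD1), per the file headers, on mm10/GRCm38, per the submitters' processing notes. Intron and cell-calling settings are not given in the sources used here. Barcodes under 200 genes or over 10% mitochondrial UMIs were dropped, and the 280, 83, 722 and 594 cells with the highest scrublet scores (scanpy 1.11.5; numbers set by a nominal doublet rate per barcode) were removed as doublets. Counts were summed per gate and library over the 30406 shared genes. Lineage contrasts used edgeR 4.0.16 (R 4.3.3; TMM, filterByExpr, quasi-likelihood test, library as block, threshold 0.05), with DESeq2 1.42.0 as an alternative. Gates of 1 library come from the same pooled cells, and this is what the block pairs. KO/WT and anti-PD1/untreated ratios used a pseudocount of 0.5 CPM and have no test. Alternatives changed cell filters, gates, scaling, pseudocount, minimum counts, the fold and depth, or left out cells or libraries. Scripts were tested on simulated data. Members, gene lists and the rule for named genes (largest changes per contrast, highest levels per complex, tissue-restricted isoforms) were chosen with earlier results of these data known. The gates of monocytes/macrophages use Fcgr1 and Ms4a4c, which interferon can induce. The comparison of gates within a pair, the Arg1 and length splits and AA467197 were added after seeing the data.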

Additional observations from a re-analysis of the deposited data

Results flagged for a closer look

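Several members had KO/WT log2 ratios past 0.32 in opposite directions in the untreated and the anti-PD1 pair. With 1 library per group the difference was not tested, and the anti-PD1 libraries differ from each other in their receptor segment counts. In monocytes/macrophages these were Ndufa13, an accessory subunit of complex I (-0.52 and 0.77), Cox5b (-0.35 and 0.54), Cox4i2 (0.69 and -0.56) and Dmac2l (-0.72 and 0.34). In microglia they were Atp5e (-0.59 and 1.12) and Cox7b (-0.71 and 0.42). In T cells they were Ndufa1 (-0.32 and 1.01), Cox7b (-0.39 and 0.52), Cox8a (-0.42 and 0.38) and Sdhaf1 (0.60 and -0.84), whose direction is the opposite of the other 3. Within the anti-PD1 pair, Ndufb8 went in opposite directions in monocytes/macrophages (0.35) and T cells (-0.38), also untested.

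Ndufb1-ps, which the rule leaves out by its symbol, had 12273 UMIs in the WT library of the anti-PD1 pair and 16026 in its KO library. The gene lists of the untreated libraries do not hold it, so no ratio across treatment was made.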

How the results depend on the processing

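Of 242 alternative values of the main counts, 200 stayed within 1.5 times the reported count and in its direction, 33 moved further and 9 reversed. Of 494 for single members and relative microglia counts, the numbers were 424, 63 and 7. A single member stayed when its ratio lay in the counting-error interval of its main ratio. Leaving out Arg1 cells alters the macrophage gate alone. T cell and microglia values under it stay by construction and are among those that stayed. Chosen after seeing the data were the gates without Fcgr1, Ms4a4c and Csf3r, library totals in the lineage fits and all relative counts. Beside a 1.5-fold threshold, untreated counts fell from 26 to 15 (monocytes/macrophages, higher), 20 to 8 (microglia, lower), 20 to 1 (T cells, lower), and 31 to 19 for anti-PD1 microglia (higher); relative counts fell from 39 to 10 (macrophages against T cells, untreated), 36 to 9 (against microglia, untreated), 65 to 28 and 62 to 19 (anti-PD1), and microglia against T cells turned from 13 to 1 higher and 2 lower. Without a cell filter, the lower untreated microglia count was 13 in place of 20, and WT T cells after anti-PD1 gave 22 lower and 28 higher in place of 26 and 24. Thinning each cell to 1000 UMIs gave 3 lower and 5 higher of 15 untreated microglia members, and 5 of 15 in place of 36 of 77 for macrophages against microglia. Gate minimums of 1 UMI gave 13 lower in untreated T cells, 26 higher and 30 lower in anti-PD1 T cells, and 21 in place of 36 for macrophages against microglia. TMM factors gave 22 higher and 27 lower in anti-PD1 microglia, 24 and 31 in anti-PD1 T cells, 51 in place of 32 (WT macrophages after anti-PD1), 66 in place of 29 (WT microglia), 18 higher and 26 lower in place of 39 and 11 (KO T cells) and 20 in place of 36 (macrophages against microglia). DESeq2 size factors gave 22 and 27 in anti-PD1 microglia, 27 and 28 in anti-PD1 T cells and 16 for macrophages against microglia. Totals without ribosomal and mitochondrially encoded genes gave 26 higher and 30 lower in WT macrophages after anti-PD1. Without cells with an Arg1 UMI, 65 and 62 became 33 and 27, and no share of all genes was counted for this. Untreated microglia against T cells turned from 11 higher and 6 lower to 7 and 8 with doubled gate minimums and 11 and 12 without cycling cells. Single members that turned were Ndufa12 in untreated microglia (0.049 under the strict cell filter, 0.0080 with cells weighted equally), Ndufaf7 (0.10, gate minimums of 1 UMI) and Ndufs4 (0.049, thinned) in untreated T cells.

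The library block paired gates of the same library. With no replicate block, lower members numbered 32 in place of 74 (microglia against monocytes/macrophages), 7 in place of 27 (T cells against monocytes/macrophages) and 0 in place of 10 (CD4 against CD8 T cells, 1 at an unadjusted p under 0.05), and higher members 11 in place of 48 (T cells against microglia). Leaving out each library in turn gave 59 to 68, 12 to 38, 2 to 4 and 25 to 53 in the same order. T cells against monocytes/macrophages had 13 lower members without anti-PD1 WT, 12 without anti-PD1 KO and 19 without untreated KO, and T cells against microglia 25 without untreated WT and 27 without untreated KO. DESeq2 gave 3 lower members in CD4 T cells. Library totals in place of TMM gave 3 there, and 10 lower and 8 higher for T cells against monocytes/macrophages. Gates without Fcgr1, Ms4a4c and Csf3r gave 72, 34 and 35 for the first 3 contrasts. The microglia gate, with 129 to 257 cells in 3 libraries, limits the depth of its ratios. The cause of these shifts was not tested.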
